A study of Mus musculus with 4 samples.

Results

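B cells of mouse inguinal white adipose tissue (iWAT, the subcutaneous fat of the groin) were compared between mice exposed to cold or given CL-316,243 (CL, an agonist of the beta-3 adrenergic receptor) and mice before treatment. The nuclei were those that the deposited annotation calls B cells, 11967 of 32552 nuclei (36.8%), and their counts were summed per mouse. The measurement was single-nucleus ATAC-seq, in which a transposase cuts open chromatin, so that a count is a nucleus with reads in a peak and a higher value is more accessible chromatin, not more RNA. The animals were male C57BL/6J mice aged 8 weeks, all kept at 22 °C before the intervention, and the labels name no transgene or deletion. The 7 groups of 3 mice each were day0RT (no intervention), day1C, day3C and day7C (1, 3 or 7 days at 6.5 °C), and day1CL, day3CL and day7CL (1, 3 or 7 days of CL at 1 mg/kg). Cold below means the 9 mice of the 3 cold groups and CL the 9 mice of the 3 CL groups, each set against the 3 day 0 mice.

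B cells arise in the bone marrow, recognise antigen through the B cell receptor, whose signal passes through the signalling chains Cd79a and Cd79b and the kinases Lyn, Syk and Btk, and present peptides of the bound antigen to T cells on MHC class II molecules. Their identity rests on the transcription factors Pax5 and Ebf1, and survival in the periphery needs BAFF, which acts through NF-kB as CD40 does. In fat they are found among the stromal cells and in lymphoid clusters and, together with T cells, in the lymph node that lies within the inguinal pad. CL acts on the beta-3 receptor, which adipocytes carry.

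The sequences shown here stand for the kinds of region on which the results below turn, all from GRCm38.p6 (mm10). The first is the peak with the smallest adjusted p of all peaks in CL, chrX:143482906-143483205 on the plus strand, which lay in no annotated gene and nearest to Pak3. Capitals mark bases inside 32-base words that occur elsewhere in the genome, 104 of 300.
chrX peak: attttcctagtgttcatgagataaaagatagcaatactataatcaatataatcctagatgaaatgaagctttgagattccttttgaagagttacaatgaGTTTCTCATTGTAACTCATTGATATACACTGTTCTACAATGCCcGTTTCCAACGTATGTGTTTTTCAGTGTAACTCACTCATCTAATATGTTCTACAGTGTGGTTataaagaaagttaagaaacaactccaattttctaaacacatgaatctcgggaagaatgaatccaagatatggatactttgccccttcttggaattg
The second is the centre of a peak over the pseudogene Pisd-ps2, chr17:3082335-3082634 on the plus strand, where 254 of 300 bases are capitals of the same kind. It is shown because regions with copies elsewhere were frequent among the peaks that rose.
Pisd-ps2 peak: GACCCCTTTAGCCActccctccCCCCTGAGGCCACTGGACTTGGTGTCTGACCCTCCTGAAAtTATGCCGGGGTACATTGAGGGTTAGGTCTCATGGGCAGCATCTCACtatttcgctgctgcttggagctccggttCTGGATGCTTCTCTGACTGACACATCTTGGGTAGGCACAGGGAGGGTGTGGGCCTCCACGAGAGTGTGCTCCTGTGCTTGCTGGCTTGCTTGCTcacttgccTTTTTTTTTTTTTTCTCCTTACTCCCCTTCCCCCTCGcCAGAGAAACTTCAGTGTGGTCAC
The third is the centre of the peak at the start of Trnt1, which rose in cold, chr6:106769103-106769402 on the plus strand. The capitals are a match to the cAMP response element (CRE) TGACGTCA at base 36.
Trnt1 peak: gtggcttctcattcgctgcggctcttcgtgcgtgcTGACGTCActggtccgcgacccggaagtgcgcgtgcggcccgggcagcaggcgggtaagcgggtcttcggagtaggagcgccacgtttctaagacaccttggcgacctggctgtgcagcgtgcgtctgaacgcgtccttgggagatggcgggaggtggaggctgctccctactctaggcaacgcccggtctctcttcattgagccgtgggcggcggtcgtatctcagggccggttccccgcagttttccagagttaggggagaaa
The last pair belongs to H2-Aa, a gene of antigen presentation that fell. Its intron peak passed the threshold in CL and the peak over its promoter did not. The intron peak that fell in CL is shown as chr17:34287068-34287367 on the plus strand, with a match to the AP-1 motif TGANTCA at base 282 in capitals, and the RefSeq promoter as chr17:34287774-34288073 on the minus strand, with a match to CRE at base 177 and overlapping NF-kB matches at bases 120 and 121 in capitals.
H2-Aa intron peak: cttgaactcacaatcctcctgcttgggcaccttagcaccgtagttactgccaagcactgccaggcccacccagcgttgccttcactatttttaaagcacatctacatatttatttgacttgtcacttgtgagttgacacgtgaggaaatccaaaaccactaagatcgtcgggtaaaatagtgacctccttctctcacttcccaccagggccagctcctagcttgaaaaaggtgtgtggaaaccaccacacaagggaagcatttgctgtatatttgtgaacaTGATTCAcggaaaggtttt
H2-Aa promoter: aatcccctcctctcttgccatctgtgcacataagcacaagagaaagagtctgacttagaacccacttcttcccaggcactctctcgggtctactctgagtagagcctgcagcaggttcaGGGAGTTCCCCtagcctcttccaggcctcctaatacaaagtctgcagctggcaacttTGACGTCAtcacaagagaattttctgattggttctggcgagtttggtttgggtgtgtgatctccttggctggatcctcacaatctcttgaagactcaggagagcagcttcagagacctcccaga
These matches are descriptions of the letters. A CRE word on either strand stood in 1.47% of the central 300 bases of all tested peaks and in 1.79% of RefSeq promoters, and an AP-1 word in 7.17% and 7.81%.

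The label was checked against marker genes, on the scale of counts per 1000000 counts of the gene library (CPM), with a gene's value the sum over peaks in its body and 2000 bases upstream. Ms4a1 (CD20) stood at 135 CPM in the nuclei called B cells and at 10.4 in T cells. Pax5 stood at 722 CPM in B cells and 73.8 in T cells. Several markers of other cells were far lower than in those cells, with the T cell gene Cd3e at 2.37 CPM in B cells and 123 in T cells, Bcl11b at 8.13 and 508, and the adipocyte lipid droplet gene Plin1 at 4.32 in B cells and 293 in adipocytes. Others differed less, as Cd3d had 85.9 CPM in B cells against 266 in T cells and Adipoq 45.3 against 136 in adipocytes. Among genes named as endothelial markers Pecam1 had 353 CPM in B cells and 435 in T cells, and Cdh5 had 97.6 in B cells, 13.4 in T cells and 95.3 in macrophages.

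The libraries were unequal. A mouse gave between 66 and 860 B cell nuclei, with gene library totals between 43662 and 1466100 counts, and the median was 974 counts per nucleus over all B cells. The thinnest libraries were those of day1CL mouse 3 with 66 nuclei and day3CL mouse 2 with 154, and results that rest on them are given with and without both. Of 28031 barcode sequences 4218 occurred in 2 or more mice, and a nucleus was identified by its barcode together with its mouse. Counts within 2000 bases of a gene start made up 45.5, 44.5 and 43.8% of B cell counts in the day 0 mice, 42.6 to 45.0% in cold and 40.5 to 46.1% in CL.

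**Figure D1:**
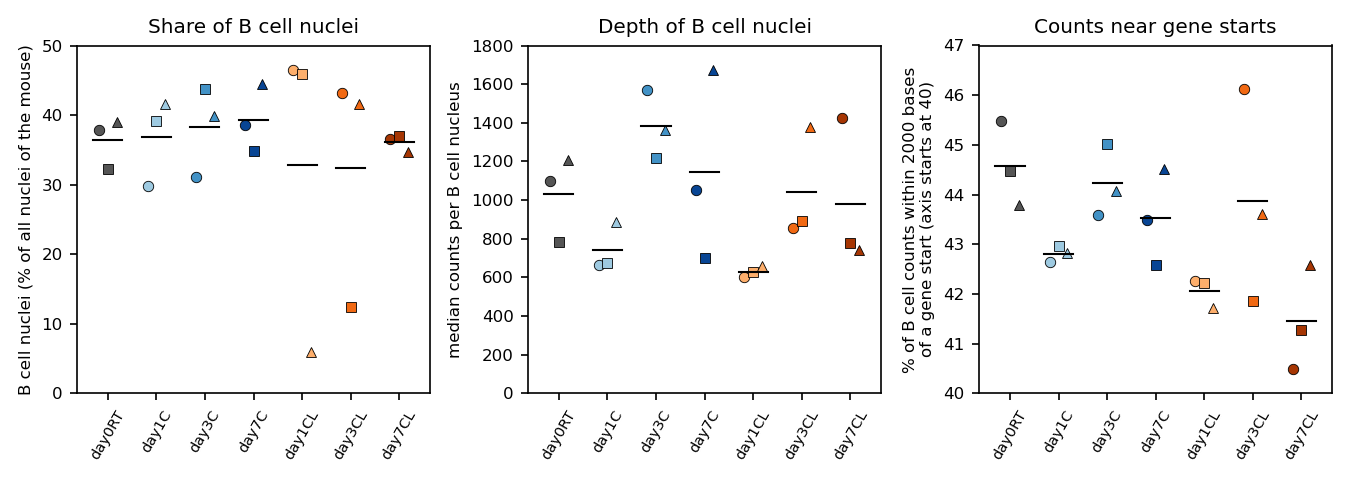
Share of B cell nuclei among all nuclei (%), median counts per B cell nucleus, and the share of B cell counts within 2000 bases of a gene start (%, axis starting at 40) in each of the 21 mice. Each point is 1 mouse (circle, square and triangle for mice 1, 2 and 3) and each line a group mean; 2 CL mice had B cell shares of 5.94 and 12.4%, below every other mouse.

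The share of B cells among nuclei was 37.8, 32.2 and 39.1% in the day 0 mice, and the cold mice ranged from 29.8 to 44.4% with a median of 39.2%. The means were 36.4% ± 3.66 (SD, n = 3) at day 0 and 38.1% ± 5.199 (SD, n = 9) in cold, a difference of 1.78 percentage points that was smaller than the spread between mice (exact two-sided permutation test, p = 0.6, adjusted p = 0.991 over the 2 comparisons). In CL the lowest share was 5.94%, the median 36.9% and the highest 46.5%, and the mean of 33.7% ± 14.6 (SD, n = 9) was 2.60 points below day 0 (exact permutation test, p = 0.991, adjusted p = 0.991), where the smallest p that 220 splits allow is 0.00909. All 3 groups overlapped. Without both thin libraries the difference in CL was 4.42 points above day 0 (adjusted p = 0.4, exact permutation test). They are thin because they held few B cell nuclei, so leaving them out raises the CL mean and cannot decide the sign. Adipocytes made up 58.9% of the nuclei of day1CL mouse 3 and 75.1% of those of day3CL mouse 2. Of the nuclei other than adipocytes, B cells made up 14.4 and 49.8% in these mice. By day, the means ran from 36.9 to 39.2% in cold and were 32.8% ± 23.2, 32.4% ± 17.3 and 36.1% ± 1.16 (SD, n = 3) on days 1, 3 and 7 of CL. A share is relative, so a change in B cells cannot be told apart from a change in the other nuclei of the tissue.

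The first question was which genes changed in B cells under cold. Few did, as 13 of 11486 tested genes (0.113%) passed an adjusted p of 0.05 in edgeR's quasi-likelihood test, 10 higher and 3 lower, and the median log2 fold change of all genes was -0.005. The genes that rose had varied roles, among them the receptor phosphatase Ptprd, the phospholipase Plcb1, the tRNA CCA-adding enzyme Trnt1, the ubiquitin ligase adaptor Klhl2 and the centrosomal gene Sfi1, and those that fell were Mrpl11 of the mitochondrial ribosome, Blcap and the GPI-anchored surface protein gene Ly6e. The remaining 5 that rose were Itpripl1, Eps8l1, Nav3, Mrpl38 and the laminin gene Lamb3. DESeq2 called 0 genes (361 at an unadjusted p under 0.05, against 1068 in edgeR). The count fell to 0 without day 0 mouse 3, to 4 without day 0 mouse 1 and to 7 without day7C mouse 1, so that no call in cold held without day 0 mouse 3.

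**Figure D2:**
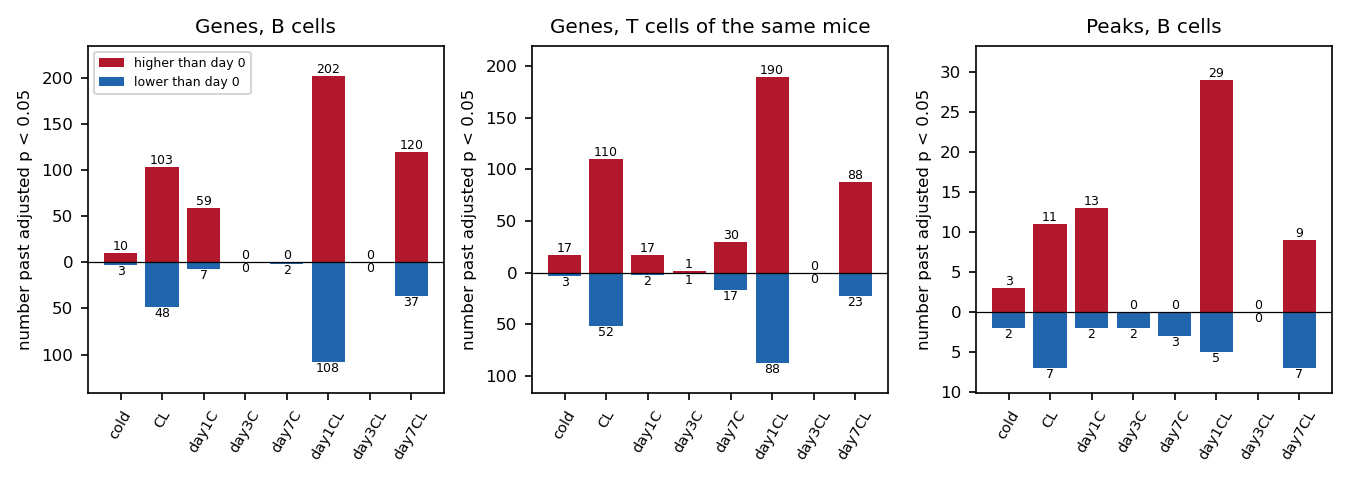
Number of genes in B cells, genes in T cells of the same mice and peaks in B cells past an adjusted p of 0.05 in edgeR, higher (above the line) or lower (below it) than day 0. The bars for day3CL are at 0 in each panel, and day1CL has the most calls in each.

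Trnt1 (chr6:106769120-106782474) stood at 52.6, 40.1 and 37.1 CPM in the day 0 mice, and the cold mice ranged from 61.3 to 90.1 CPM with a median of 70.9. Every cold mouse was above every day 0 mouse. The log2 fold change was 0.75 ± 0.15 (SE; edgeR adjusted p = 0.00506), and it was 0.60 ± 0.16 in CL (adjusted p = 0.0297), where values of 45.8 to 107 CPM overlapped day 0. The gene's value comes from 1 peak, the one shown above, so gene and peak are the same counts. On the scale of the peak library it went from 47.1, 35.6 and 32.9 CPM at day 0 to between 54.0 and 78.7 in cold (log2 fold change 0.78 ± 0.15, adjusted p = 0.0101). In T cells of the same mice the gene's log2 fold changes were 0.26 in cold and 0.25 in CL, and the difference between the cell types did not pass the test. Without day 0 mouse 3 the cold value was 0.61 (adjusted p = 0.25).

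Klhl2 stood at 36.1, 51.8 and 41.5 CPM at day 0 and between 57.5 and 78.0 CPM in cold, with a median of 67.2. The groups did not overlap, and the log2 fold change was 0.71 ± 0.15 (edgeR adjusted p = 0.0178). In CL the log2 fold change was 0.81, with the values of day1CL and day7CL above and those of day3CL within or near the day 0 range. Lamb3 changed less, from 240.5, 238 and 241.2 CPM at day 0 to a range of 255.2 to 351.1 in cold (0.37 log2 units, adjusted p = 0.0369).

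Ly6e (chr15:74955051-74959905) fell in cold. Its values were 281.8, 322.9 and 311.1 CPM at day 0, 178.7 to 283.2 CPM with a median of 230.2 in cold, and 177.6 to 274.8 with a median of 244.6 in CL. The cold mice reached just into the day 0 range and the CL mice stayed below it. The log2 fold change in cold was -0.35 ± 0.08 (edgeR adjusted p = 0.0398), and T cells of the same mice had -0.07 in cold and -0.16 in CL, without a difference between the cell types that passed the test.

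Mrpl11 had 53.7, 66.0 and 55.7 CPM at day 0 and 19.7 to 42.4 CPM in cold with a median of 36.8, with no overlap. It fell by 0.77 on the log2 scale (SE 0.17, edgeR adjusted p = 0.0209), most on day 1 (-1.14, adjusted p = 0.00699). Its promoter peak is its only peak and so holds the same counts. Tested among peaks it had -0.74 in cold (adjusted p = 0.0502) and -1.10 on day 1 (adjusted p = 0.0438). Blcap had 79.5, 54.2 and 63.3 CPM at day 0 and 29.9 to 56.6 in cold with a slight overlap (log2 fold change -0.66 ± 0.15, edgeR adjusted p = 0.0323). A peak over its exon (chr2:157566010-157567065), the 1 of its 5 peaks that was tested, had -0.72 (adjusted p = 0.048, lost without both thin libraries, which are not of cold mice). The counts of this peak are part of the gene's. The RefSeq promoter of Blcap (chr2:157566312-157566611) lies inside the peak. The annotated gene start was 4737 bases away, so the peak was not counted at a gene start below. Pias1, a SUMO ligase gene (-0.39, adjusted p = 0.0556), and Cybc1, a chaperone of the phagocyte oxidase (-0.49, adjusted p = 0.0589), were next and did not pass.

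**Figure D3:**
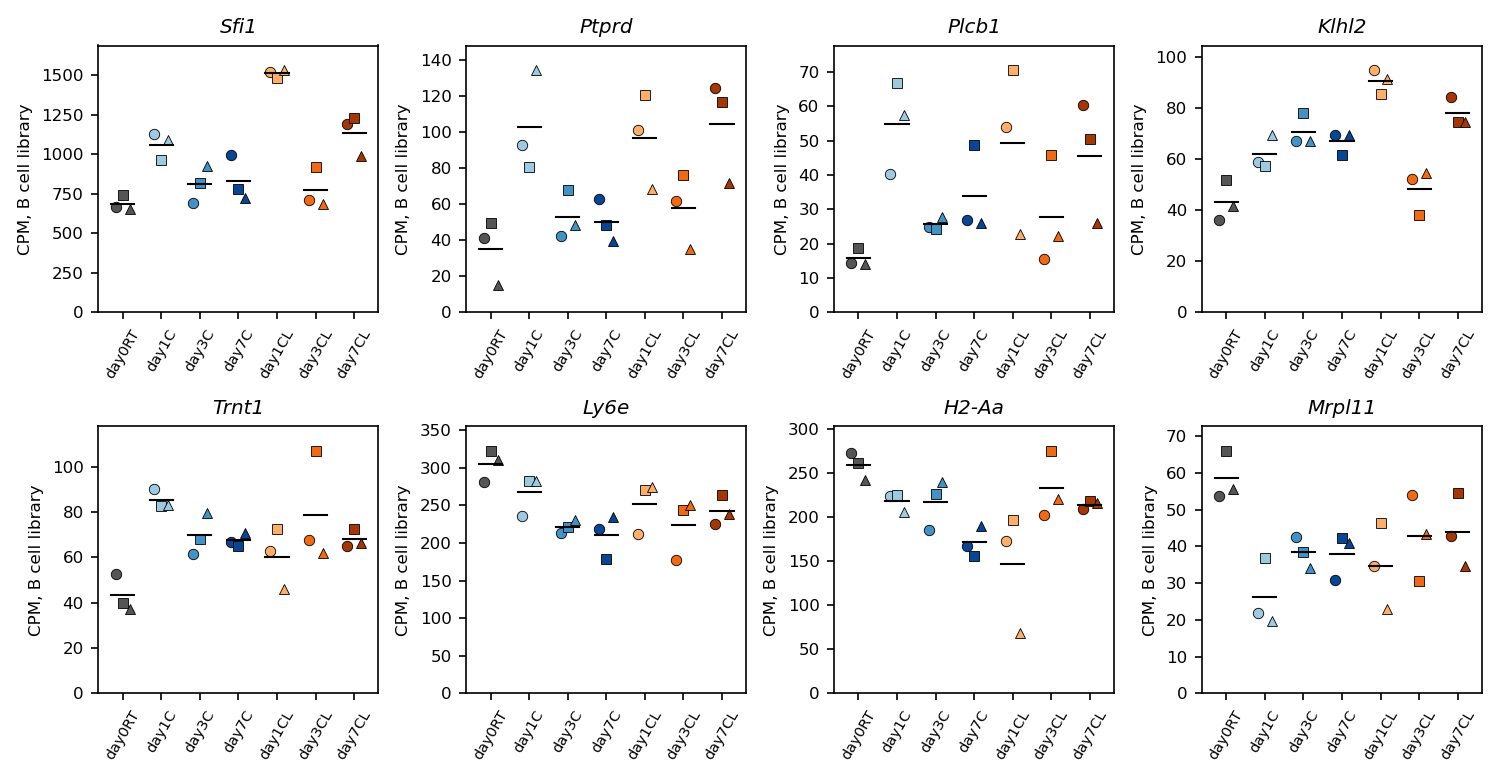
CPM of 8 genes in the B cell library of each of the 21 mice, by group. Points are mice and lines group means; Sfi1 in the 3 day1CL mice stands between 1483 and 1535 CPM against 651.7 to 742.3 at day 0, and Trnt1, Klhl2 and Mrpl11 in cold do not overlap day 0.

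In CL 151 of 11486 genes (1.31%) passed in B cells, 103 higher and 48 lower, with a median log2 fold change over all genes of -0.009. The genes named by size and by every mouse of the arm moving the same way were, among those higher, the semaphorin Sema6d, the glypican Gpc6, the fatty acid receptor Cd36, the dynamin Dnm3, the splicing factor Cwc22, Sfi1, the calcium sensor Hpcal1, the growth factor Pdgfc, Ginm1 and Trnt1. Those lower were the transcription factor Sp9, the nucleotidase Nt5c, the cap-binding gene Ncbp2, Pdik1l, the proteasome assembly gene Psmd5, the translation factor Eif3d, Rps27l and the hydrolase Nudt8, where Ncbp2 shares its peak with 0610012G03Rik and Nudt8 with Gm49405, so that these pairs cannot be told apart. Without both thin libraries the count was 124 in CL and 13 in cold. It was 15 without day 0 mouse 1, 77 without day 0 mouse 3, 50 without day7CL mouse 1, 94 without day1CL mouse 1 and 98 without day3CL mouse 3. Without day 0 mouse 1 each gene named here other than Sfi1 and Gpc6 lost its call. DESeq2 called 18 genes, 17 of them among the 151.

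Sfi1, which encodes a centrin-binding protein of the centrosome (chr11:3131850-3193463), had the smallest adjusted p. It stood at 667.9, 742.3 and 651.7 CPM at day 0, at 694.2 to 1128 CPM with a median of 923.6 in cold, and at 688.3 to 1535 with a median of 1193 in CL. The day1CL and day7CL mice were all above day 0, while cold mice and 2 of the 3 day3CL mice overlapped it. The log2 fold change was 0.39 ± 0.07 in cold (edgeR adjusted p = 0.00104) and 0.67 ± 0.07 in CL (adjusted p = 2.5e-12), and the CL call held whichever single library of the comparison was left out. All 28 of its tested peaks had a positive log2 fold change in cold and in CL, 3 of them past the threshold in CL, and in 9 of the 28 at least 10% of the 32-base words also occur elsewhere in the genome. In T cells of the same mice Sfi1 went from 829.1, 1005 and 856 CPM at day 0 to between 1094 and 1423 in cold and between 967 and 2121 in CL (the highest from day3CL mouse 2, with 21 T cell nuclei, and the next 1855), log2 fold changes of 0.50 and 0.66, and B minus T was -0.10 and -0.02.

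Sema6d stood at 28.9, 25.9 and 28.4 CPM at day 0 and at 35.1 to 91.7 CPM with a median of 57.6 in CL, without overlap (log2 fold change 0.96 ± 0.20, edgeR adjusted p = 0.00287). Gpc6 stood at 55.7, 35.3 and 51.3 CPM at day 0 and at 65.6 to 137.4 with a median of 90.7 in CL, also without overlap (0.82 ± 0.15, adjusted p = 0.000316). Both are long genes, of 577802 and 1051230 bases. In T cells of the same mice their log2 fold changes in CL were 1.05 and 1.02, given side by side since no difference between the cell types passed. The T cell values of Sema6d were low, at 14.9, 17.3 and 11.5 CPM in the day 0 mice and 0 in day3CL mouse 2.

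Cd36 encodes a scavenger receptor that binds long-chain fatty acids and is known from marginal zone B cells as well as from adipocytes and macrophages. It had 46.5, 56.6 and 46.9 CPM at day 0, 57.3 to 130.5 CPM with a median of 67.2 in cold, and 63.7 to 137.4 with a median of 84.2 in CL. Every treated mouse was above every day 0 mouse, and the log2 fold change in CL was 0.73 ± 0.15 (edgeR adjusted p = 0.00311). It passed on day 1 of cold (0.85, adjusted p = 0.00699), day 1 of CL (0.75, adjusted p = 0.0326) and day 7 of CL (0.89, adjusted p = 0.000833). The day 1 value in CL was 0.70 and did not pass without both thin libraries, and with the share of counts near gene starts as a covariate the value in CL was 0.46 and did not pass. T cells of the same mice had 0.86 in cold and 1.03 in CL. Their Cd36 values were low, at 18.7, 15.3 and 5.77 CPM in the day 0 mice and 0 in day3CL mouse 2. Summed over 20 adipocyte markers, the B cell libraries held 405.7, 527.9 and 439.9 CPM at day 0, 421 to 528 in cold and 432 to 573 in CL; over 18 myeloid markers they held 390, 419 and 430 CPM at day 0, 405 to 450 in cold and 411 to 573 in CL, and the part of these in the Cd36 values was not tested.

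Dnm3 (0.72, edgeR adjusted p = 0.0199), Cwc22 (0.71, adjusted p = 0.0131) and Hpcal1 (0.63, adjusted p = 0.00615) had T cell log2 fold changes of 0.16, 0.20 and 0.12 in CL, smaller than those of B cells. Pdgfc had the reverse order, 0.63 in B cells (adjusted p = 0.0166) and 1.34 in T cells. Its T cell values were low, at 9.34, 5.75 and 9.24 CPM in the day 0 mice and 0 in day3CL mouse 2. None of these differences between the cell types passed the test described below. Among the genes that fell, Nt5c had 70.2, 54.2 and 69.9 CPM at day 0 and 19.4 to 52.9 CPM with a median of 38.3 in CL, with no overlap (log2 fold change -0.76 ± 0.17, edgeR adjusted p = 0.00677). The others ran from -0.76 for Sp9 (adjusted p = 0.0109) to -0.53 for Nudt8 (adjusted p = 0.0158), and the call of Rps27l was lost without both thin libraries. Pdik1l had a count of 0 in day1CL mouse 3.

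CL and cold were also compared directly, and 2 of 11486 genes (0.0174%) passed in B cells, both higher in CL. Sfi1 was higher by 0.27 ± 0.05 log2 units (edgeR adjusted p = 0.00431), with 7 of 9 CL mice above the cold mean. Cep128, another centrosomal gene, was higher by 0.49 ± 0.10 (adjusted p = 0.00719), with 8 of 9 on that side, from 64.4 to 106.1 CPM in cold and 84.1 to 191.4 in CL. Day 0 mice had 79.5, 190.9 and 86.2 CPM of Cep128, so the day 0 values overlapped both arms. Cep128 was highest in day 0 mouse 2 and day1CL mouse 2, in B cells and also in T cells (232 and 231 CPM). Tshr, named below, was highest in the same mice, at 146 and 145 CPM in B cells and 205 and 186 in T cells. The cause was not tested. The call of Cep128 was lost without day1CL mouse 2, whose value was the 191.4, as without day1C mouse 2, day3C mouse 2, day7C mouse 3, day3CL mouse 3 or day7CL mouse 1, and that of Sfi1 without day1C mouse 2 or day7C mouse 3. Atp8a1, Tshr, Cmbl, Ppfia3, Ppp1ca and Borcs6 were next and did not pass (adjusted p from 0.0948 to 0.149).

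By day, the calls were uneven, and so was depth. Median counts per B cell nucleus averaged 1030.5 over the day 0 mice. They averaged 740.2, 1382.2 and 1142.8 on days 1, 3 and 7 of cold. On the same days of CL they averaged 629.5, 1040.8 and 981.3. With nuclei of at least 1000 counts, fewer genes passed on day 1 of cold and on days 1 and 7 of CL, as given below. That subset also holds fewer nuclei, so it cannot decide the part of depth in the day pattern. In cold 66 genes (0.575%) passed on day 1, 59 higher and 7 lower, 0 (0%) on day 3, where 823 genes had an unadjusted p under 0.05 in edgeR and 202 in DESeq2, which also called 0, and 2 (0.0174%) on day 7, both lower. In CL 310 genes (2.7%) passed on day 1, 202 higher and 108 lower, 0 (0%) on day 3, with 743 at an unadjusted p under 0.05 in edgeR and 217 in DESeq2, which also called 0, and 157 (1.37%) on day 7, 120 higher and 37 lower. The day 1 count in cold was 10 without day1C mouse 3, 42 without day1C mouse 2, 20 without day 0 mouse 3 and 41 without day 0 mouse 1. That of CL was 47 without day1CL mouse 1, 114 without day1CL mouse 2, 121 without day 0 mouse 1 and 173 without day 0 mouse 3. The day 7 count in CL was 14 without day7CL mouse 1, 30 without day 0 mouse 1 and 63 without day 0 mouse 3, and leaving out day 0 mouse 1, day3C mouse 2 or day3C mouse 3 gave 4, 1 and 2 genes on day 3 of cold.

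On day 1 of cold the neuron navigator gene Nav3 (log2 fold change 1.97, edgeR adjusted p = 1.85e-06) and Plcb1 (1.89, adjusted p = 2.55e-06) rose most of the genes named, and on day 1 of CL Plcb1 had 1.98 (adjusted p = 4.85e-06) and Nav3 1.86 (adjusted p = 8.39e-05). The day 0 mice serve both comparisons. Plcb1, whose product cleaves membrane phosphoinositides downstream of Gq-coupled receptors, had 14.5, 18.9 and 14.2 CPM at day 0, 24.3 to 66.7 with a median of 27.8 in cold, and 15.4 to 70.6 with a median of 45.9 in CL. Every cold mouse was above every day 0 mouse, and in CL 1 mouse, of day 3, fell within the day 0 range. Ptprd had 41.3, 49.5 and 15.3 CPM at day 0, 39.6 to 134.8 in cold and 35.1 to 124.5 in CL, with a log2 fold change of 1.74 on day 1 of cold and 1.80 on day 7 of CL (adjusted p = 9.32e-13). Its low value in day 0 mouse 3 weighed on the fold in cold, which went from 0.99 ± 0.18 (adjusted p = 0.00104) to 0.57 without that mouse (adjusted p = 0.428), and that of Nav3 went from 1.14 to 0.65 (adjusted p = 0.598).

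Both genes of day 7 of cold act in immune cells. Gimap6, a GTPase of lymphocytes, stood at 182.7, 143.8 and 160.5 CPM at day 0 and at 104.3, 110.4 and 116.6 in the day7C mice (log2 fold change -0.57 ± 0.12, edgeR adjusted p = 0.0383). H2-Aa stood at 272.5, 261.6 and 242.3 CPM at day 0 and at 167.1, 155.9 and 190.3 in the day7C mice (-0.55 ± 0.11, adjusted p = 0.0146). Neither gene overlapped between these groups. The number called was 0 without day 0 mouse 1 or day7C mouse 2 and 1 without day7C mouse 1. On day 7 of CL the genes that fell most were Eif2s2, which encodes the beta subunit of a translation initiation factor (-0.88, adjusted p = 0.00378), and Scarf2 (-0.85, adjusted p = 0.0484), and on day 1 they were Sp9 (-1.26, adjusted p = 0.00446) and the potassium channel Kcnh6 (-1.15, adjusted p = 0.047, lost without both thin libraries). On day 1 of cold they were Fgfbp3 (-1.34, adjusted p = 0.00665) and Mrpl11.

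Whether the days of a treatment differed among themselves was tested directly, without the day 0 mice. This test was added after seeing the data. In cold 30 genes (0.261%) differed among the 3 days and in CL 39 (0.34%) in edgeR's quasi-likelihood F test, adjusted over all 11486 genes. Of the 30, 28 were highest on day 1 and 23 were over 200 kb long. In CL, 24 of the 39 were highest on day 1 and lowest on day 3, another 8 were highest on day 7 and lowest on day 3, and 24 were over 200 kb long. The filter needed only 3 libraries, so a low gene could enter the test through the group where it was high. Parm1 averaged 4.19 counts per library and had a log2 fold change of 3.11 on day 1 of cold. The part of the filter in the order of the days and in the lengths was not tested. Sfi1 led the CL test with log2 fold changes against day 0 of 1.12, 0.11 and 0.77 on days 1, 3 and 7 (adjusted p = 4.05e-16), and Ptprd led the cold test with 1.74, 0.70 and 0.55 (adjusted p = 1.79e-05).

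The genes that rose were longer than the genes tested. Over all 11486 genes the median length was 25.7 kb and 5.62% were over 200 kb, whereas of the genes that rose 50 of 103 in CL, 43 of 59 on day 1 of cold, 96 of 202 on day 1 of CL and 68 of 120 on day 7 of CL were over 200 kb. Of the 48 genes that fell in CL, 1 was, with a median of 12.8 kb. Genes that rose in CL also had few counts for their length, with a median of 0.595 CPM per kb against 2.51 over all tested genes and 9.91 in those that fell. Beside this, the share of B cell counts in genes over 200 kb was 9.19, 9.57 and 9.70% at day 0, 9.39 to 10.1% in cold and 9.16 to 10.6% in CL, and T cells of the same mice had 9.61, 9.79 and 9.83% at day 0, 9.96 to 10.5% in cold and 9.85 to 10.8% in CL. With the share of counts near gene starts as a covariate the calls were 11 in CL (6 of them among the 151), 28 on day 1 of cold, 60 on day 1 of CL and 5 on day 7 of CL, and the part of this share in the changes was otherwise not tested. A gene with few counts could also pass the filter through the group where it was high, and the part of this in the rises and their lengths was not tested.

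At the level of single peaks, 5 of 21628 tested peaks (0.0231%) passed in cold, 18 (0.0832%) in CL and 0 (0%) in CL against cold, the last with 1589 at an unadjusted p under 0.05 in edgeR and 624 in DESeq2, which also called 0. By day there were 15 (0.0694%), 2 (0.00925%) and 3 (0.0139%) on days 1, 3 and 7 of cold, and 34 (0.157%), 0 (0%) and 16 (0.074%) on those of CL, with 1270 at an unadjusted p under 0.05 on day 3 of CL in edgeR and 440 in DESeq2, which also called 0. In the pooled arms DESeq2 called 0 peaks, with 610 in cold and 910 in CL at an unadjusted p under 0.05. Without both thin libraries 2 peaks passed in cold and 10 in CL. Leaving out 1 library gave 0 to 11 peaks in cold, with 0 without day 0 mouse 3, and 1 to 18 in CL, with 1 without day 0 mouse 3, 4 without day 0 mouse 1, 3 without day1CL mouse 1, 8 without day7CL mouse 1 and 10 without day1CL mouse 3.

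The chrX peak shown first stood at 24.9, 43.9 and 18.4 CPM at day 0, at 30.8 to 67.6 with a median of 41.6 in cold and at 31.8 to 99.2 with a median of 47.1 in CL. Day 0 mouse 2 lay within the treated range. The log2 fold change was 0.86 ± 0.19 in cold (edgeR adjusted p = 0.0368, lost without both thin libraries, which are not of cold mice) and 1.28 ± 0.19 in CL (adjusted p = 2.26e-07), and the latter call held without any single library. T cells of the same mice had 0.79 and 0.70. A peak over an exon of Tmem67, a gene of the ciliary transition zone (chr4:12087477-12088305), rose from 28.6, 29.3 and 31.01 CPM at day 0 to 41.1 to 70.6 in cold (0.84, adjusted p = 0.0213) and 39.7 to 70.2 in CL (0.89, adjusted p = 0.00978), with no overlap in either arm.

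Copies of a sequence elsewhere in the genome were frequent among the peaks that rose. Peaks in which at least 10% of the 32-base words have another copy made up 6.72% of the tested peaks, 16 of the 44 peaks that rose in at least 1 comparison and 2 of the 24 that fell. Of the same 44, 14 lay nearest to Sfi1, of 33 such peaks tested. The Pisd-ps2 peak shown above had another copy of 55.0% of its words and went from 72.1, 83.7 and 60.1 CPM at day 0 to 79.4 to 171.0 in CL (0.60, edgeR adjusted p = 0.0127), with an overlap at its lower end. The study's methods drop read pairs of low mapping quality, and whether the reads kept at such copies were placed correctly was not tested.

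The peaks that fell more often lay at gene starts, 62.5% of the 24 against 31.8% of the 44 that rose and 40.9% of the tested peaks, which is given as a count without a test. The 14 risen peaks nearest to Sfi1 lay 13877 to 61163 bases from its start, so this 1 locus lowers the share of those that rose. An intron peak of Pfkfb3, a regulator of glycolysis (chr2:11502865-11503487), went from 40.7, 43.9 and 45.5 CPM at day 0 to 16.3 to 31.3 with a median of 24.2 in cold, without overlap (log2 fold change -0.87 ± 0.19, edgeR adjusted p = 0.0368, lost without both thin libraries, which are not of cold mice). A peak 1240 bases inside Bicral, a member of a chromatin remodelling complex (chr17:46856489-46857996), went from 95.2, 75.3 and 82.4 CPM to 19.8 to 67.7 in CL (-0.63, adjusted p = 0.0141). A peak at the start of Ptpn22, a phosphatase that restrains antigen receptor signalling, fell on day 3 of cold (-0.71, adjusted p = 0.0102), and that of Cox6a1, a subunit of cytochrome oxidase, on day 7 of CL (-0.79, adjusted p = 0.0488, lost without both thin libraries, which are not of day 7).

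Motif words were counted in the central 300 bases of the peaks, on both strands. Of the 44 that rose, 8 held the E2A word CAGGTG, 4 an NF-kB match, 3 the AP-1 word, 2 the CRE word, 2 the ETS word GAGGAAGT, 2 the word GAAANTGAA bound by IRF with ETS factors, 1 the octamer ATGCAAAT, 1 an EBF match and 1 the ESRR word TCAAGGTCA. Of the 24 that fell, 4 held the E2A word and 1 each the AP-1, CRE, IRF-ETS and octamer words. Over all tested peaks the shares were 22.5% for E2A, 6.38% for NF-kB, 7.92% for ETS, 2.91% for IRF-ETS, 3.05% for the octamer, 3.65% for EBF and 0.499% for ESRR.

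Antigen presentation was described over 12 MHC class II genes, whose median log2 fold change was -0.035 in cold and -0.035 in CL, against -0.005 and -0.009 over all genes, and 1 passed in CL (1.31% of all genes did) and 0 in cold (0.113%). By day the median was 0.087, -0.026 and -0.113 on days 1, 3 and 7 of cold and -0.209, 0.007 and 0.072 on days 1, 3 and 7 of CL, with 1 of 12 genes above 0 on day 1 of CL and 8 of 12 on day 7. Without both thin libraries the day 1 median in CL was -0.201. The gene that passed was H2-Aa, the alpha chain of the I-A molecule (chr17:34282744-34287823), with 155.9 to 239.2 CPM and a median of 205.9 in cold and 68.7 to 275.1 with a median of 209 in CL, beside the day 0 values given above. The cold mice all lay below day 0, and in CL 1 mouse, of day 3, lay above it. The log2 fold change was -0.35 ± 0.09 in cold (edgeR adjusted p = 0.0589) and -0.34 ± 0.09 in CL (adjusted p = 0.0297), and -0.54 on day 1 of CL (adjusted p = 0.0109), where the lowest value came from the thin library of day1CL mouse 3. The call in CL was kept without both thin libraries and lost without day 0 mouse 1 (-0.30), day 0 mouse 2, day1CL mouse 1, day3CL mouse 3 or day7CL mouse 1. All 4 of its peaks had negative values, and the intron peak shown above went from 48.0, 48.1 and 34.9 CPM at day 0 to 16.2 to 33.2 with a median of 22.6 in CL, without overlap (-0.88 ± 0.21, adjusted p = 0.0384, -0.89 and lost without both thin libraries). The peak over the promoter shown above (chr17:34287472-34288201), which held the most counts of the 4, did not pass. It had -0.16 in cold (edgeR adjusted p = 0.763) and -0.18 in CL (adjusted p = 0.61). The beta chain gene H2-Ab1 stood at -0.04 and -0.02 in cold and CL, the invariant chain Cd74 at -0.03 and -0.02, the class II transactivator Ciita at -0.05 and -0.02 and H2-Eb1 at 0.04 and 0.04, none past the threshold, and T cells had -0.49 and -0.40 for H2-Aa (adjusted p = 0.48 and 0.45). The T cell values of H2-Aa were low, at 33.6, 30.7 and 23.1 CPM in the day 0 mice and 0 in day3C mouse 1.

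B cell identity was covered by 25 tested genes, with medians of -0.024 in cold and -0.072 in CL and 0 past the threshold in either arm, where 0.113% and 1.31% of all genes passed. The median was -0.199 on day 1 of CL, against -0.010 over all genes, with 2 of 25 genes above 0 (-0.186 without both thin libraries). It was -0.029 on day 3 and 0.001 on day 7, and between -0.063 and 0.010 on the days of cold. Of lists described below, trafficking had -0.187 and cytokines -0.161 on day 1 of CL, while subset genes had 0.079 and plasma cell genes 0.028. The mean share of B cell counts near gene starts was 44.6% at day 0 and 42.1% on day 1 of CL, and its part here was not tested. Pax5 stood at 778.4, 789.5 and 732.5 CPM at day 0, 673.2 to 804.4 in cold and 639.4 to 762.6 in CL, with log2 fold changes of -0.09 ± 0.07 and -0.13 ± 0.07 (edgeR adjusted p = 0.733 and 0.364). The groups overlapped. Ebf1 had -0.05 and -0.04, and Ms4a1 -0.08 and -0.10. Fcrla, an intracellular Fc receptor-like protein of B cells, was the 1 member called by day, at -0.53 on day 1 of CL (edgeR adjusted p = 0.024), a call lost without day 0 mouse 1 (-0.48) or day1CL mouse 2 (-0.30). On day 1 of CL 2.7% of all genes passed.

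Of 25 tested genes of B cell receptor signalling, with medians of -0.061 in cold and -0.059 in CL, 1 passed, in CL, where 1.31% of all genes did. The median on day 1 of CL was -0.161, with 6 of 25 genes above 0 (-0.158 without both thin libraries), and on day 7 it was 0.028 with 18 of 25 above 0, against -0.010 and -0.001 over all genes. It was Syk, the tyrosine kinase that binds the phosphorylated Cd79a and Cd79b tails. Its values were 404.7, 379.4 and 411.5 CPM at day 0, 283.4 to 347.2 with a median of 343.1 in cold and 259.2 to 389.4 with a median of 350.8 in CL. The cold mice lay below every day 0 mouse, and the CL mice reached into the day 0 range. The log2 fold change was -0.28 in cold (edgeR adjusted p = 0.0961), -0.31 ± 0.08 in CL (adjusted p = 0.0206) and -0.55 on day 1 of CL (adjusted p = 0.00193), and both CL calls passed in DESeq2 as well (adjusted p = 0.0487 and 0.0296). The call in CL was lost without day 0 mouse 1 (-0.31, adjusted p = 0.132), day 0 mouse 3, day1CL mouse 1 or day7CL mouse 1. Cd79a (0.06 and -0.11), Cd79b (-0.11 and -0.32), Btk (-0.25 and -0.22), Blnk (-0.06 and -0.12) and Lyn (0.03 and 0.06) did not pass in cold or CL.

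Genes that mark B cell subsets (16 tested, medians 0.042 and 0.037) held Cd36, described above, and Zbtb20, a transcription factor of B1 and plasma cells that rose on day 1 of CL (0.55, edgeR adjusted p = 0.0104) and day 7 of CL (0.43, adjusted p = 0.0395). Of all genes 2.7% passed on day 1 of CL and 1.37% on day 7 of CL. Both calls of Zbtb20 were lost without day 0 mouse 1, that of day 1 also without day1CL mouse 1 and that of day 7 without day 0 mouse 3 or day7CL mouse 1, and with the share of counts near gene starts as a covariate the values were 0.26 and 0.02. Cr2 (0.06 and 0.03) and Fcer2a (0.05 and 0.15), of marginal zone and follicular cells, did not pass. The 10 tested germinal centre genes had medians of 0.031 and -0.044 with Bcl6 at 0.04 and -0.14, and the 11 tested plasma cell genes 0.080 and 0.068 with Irf4 at -0.02 and 0.06 and Prdm1 at -0.07 and 0.11. None of these latter lists had a gene past the threshold in cold or CL, where 0.113% and 1.31% of all genes passed.

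Genes of signals that reach B cells were described in lists. Of all genes 0.113% passed in cold, 1.31% in CL and 2.7% on day 1 of CL. Over 15 tested genes of BAFF and CD40 signalling the medians were -0.048 and -0.040, over 15 NF-kB genes 0.059 and 0.020, and 0 passed in cold or CL, with Nfkb1 at 0.15 and 0.05. Of 27 immediate early genes (medians -0.028 and -0.091) Fos fell on day 1 of CL (-0.90, edgeR adjusted p = 0.0175), and of 18 glucocorticoid response genes (medians -0.036 and -0.048) Txnip did (-0.68, adjusted p = 0.0187), with Fkbp5 at -0.15 and -0.05 in cold and CL. Adrenergic and cAMP signalling had 23 of 26 genes tested, with medians of -0.029 and 0.054 and 0 past the threshold in either arm. On day 1 of CL the phosphodiesterase Pde4d rose (0.39, adjusted p = 0.042) and Grk2, a kinase that desensitises receptors, fell (-0.37, adjusted p = 0.0422). Each of these 4 day 1 calls was lost without day 0 mouse 1, day1CL mouse 1 or day1CL mouse 2, that of Pde4d also without day 0 mouse 2 and that of Grk2 without day 0 mouse 3.

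Adrb1, Adrb3 and Adcy6 had too few counts in B cells to be tested. Crem, an inducible cAMP target, had -0.21 and 0.21 in cold and CL and did not pass.

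Trafficking genes (18 of 20 tested, medians -0.038 and -0.113), interferon response genes (25 of 28, medians -0.013 and -0.037), cytokines and their receptors (13 of 17, medians -0.068 and -0.035) and proliferation genes (19 of 22, medians -0.032 and -0.004) had 0 past the threshold in cold or CL. Of all genes 0.113% and 1.31% passed in these comparisons. The follicle-homing receptor Cxcr5 stood at -0.03 and 0.01, the transcription factor Irf8 at -0.09 and -0.06, Tgfb1 at 0.16 and 0.02 and Ccnd3, the cyclin of dividing B cells, at -0.20 and -0.11. The cytokine genes Il10, Il6, Tnfsf13b and Tnfsf9 had too few counts to be tested.

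Metabolic lists had medians of -0.032 and -0.075 for glycolysis (13 of 15 tested) and -0.004 and -0.010 for lipogenesis (8 of 11), and each held 1 gene that rose in CL, where 1.31% of all genes passed. Pfkp, the platelet isoform of phosphofructokinase, had 117.7, 122.5 and 135.4 CPM at day 0, 101.2 to 165.1 with a median of 149.9 in cold and 152.5 to 229.0 with a median of 167.5 in CL. The CL mice lay above every day 0 mouse (log2 fold change 0.43 ± 0.10, edgeR adjusted p = 0.0126), a call lost without day 0 mouse 1 (0.36). Elovl6, which elongates palmitate, had 116.7, 106.0 and 107.0 CPM at day 0 and 111.5 to 206.1 with a median of 154.2 in CL, with an overlap of the ranges (0.41 ± 0.11, adjusted p = 0.0356; 0.39 and lost without both thin libraries, and 0.32 without day1CL mouse 1), and 122.6 to 152.2 in cold, above day 0 (not past the threshold). The desaturase Scd1 stood at -0.19 and -0.04.

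**Figure D4:**
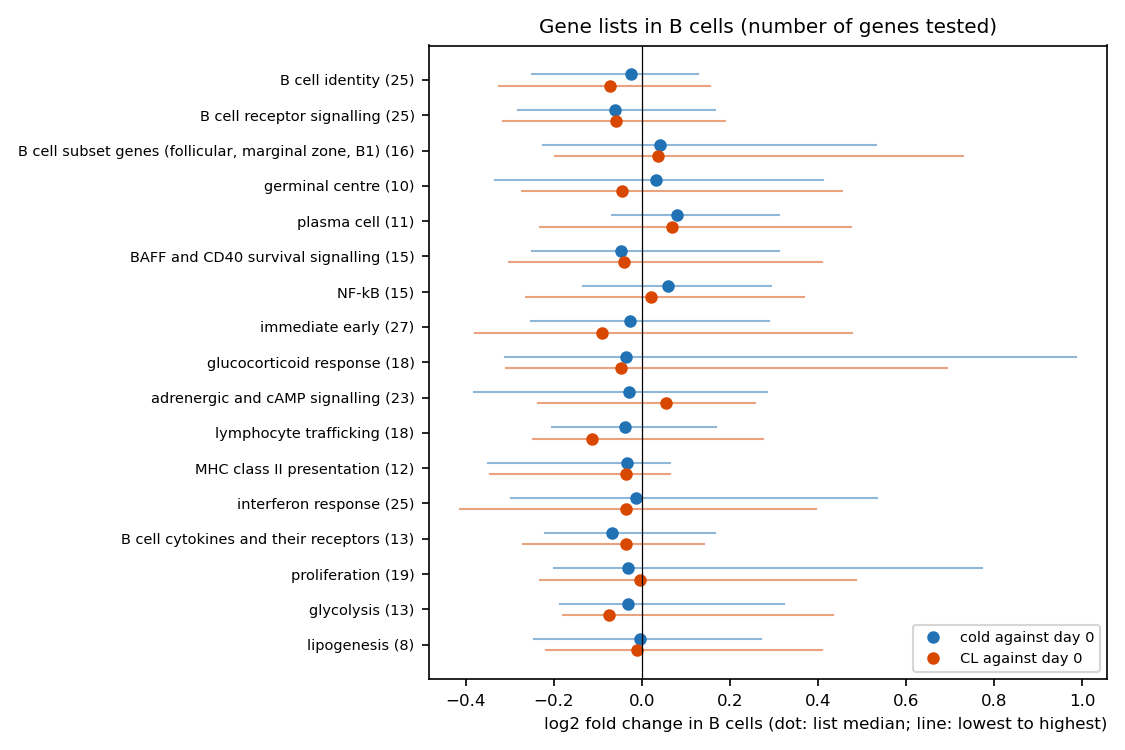
Log2 fold change in B cells of the genes of 17 lists, with the number tested in brackets. The dot is the median of the list and the line runs from its lowest to its highest member, for cold (blue) and CL (orange) against day 0; every median lies between -0.113 and 0.080.

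T cells of the same mice, 9814 nuclei, were the nearest population in which to ask which changes were particular to B cells. In their own fit 20 of 11801 genes (0.169%) passed in cold and 162 (1.37%) in CL. The change in B cells was then set against that in T cells of the same mouse in 1 model, and 0 of 12430 genes (0%) differed between the cell types in cold and 0 (0%) in CL, with 653 and 717 at an unadjusted p under 0.05 in edgeR and 217 and 261 in DESeq2, which also called 0 in each. For peaks 0 of 29504 (0%) differed in cold and 0 (0%) in CL, with 1491 and 1387 at an unadjusted p under 0.05 in edgeR. Leaving out day3C mouse 3 gave 1 gene in cold and leaving out day1CL mouse 2 gave 1 in CL. A count of 0 past the threshold does not show that the cell types responded alike. The B minus T difference was 0.49 for Trnt1 in cold and -0.55 for Nt5c in CL, neither past the threshold. Both genes were named for their change in B cells, which favours a larger value there, so they cannot show a difference either.

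**Figure D5:**
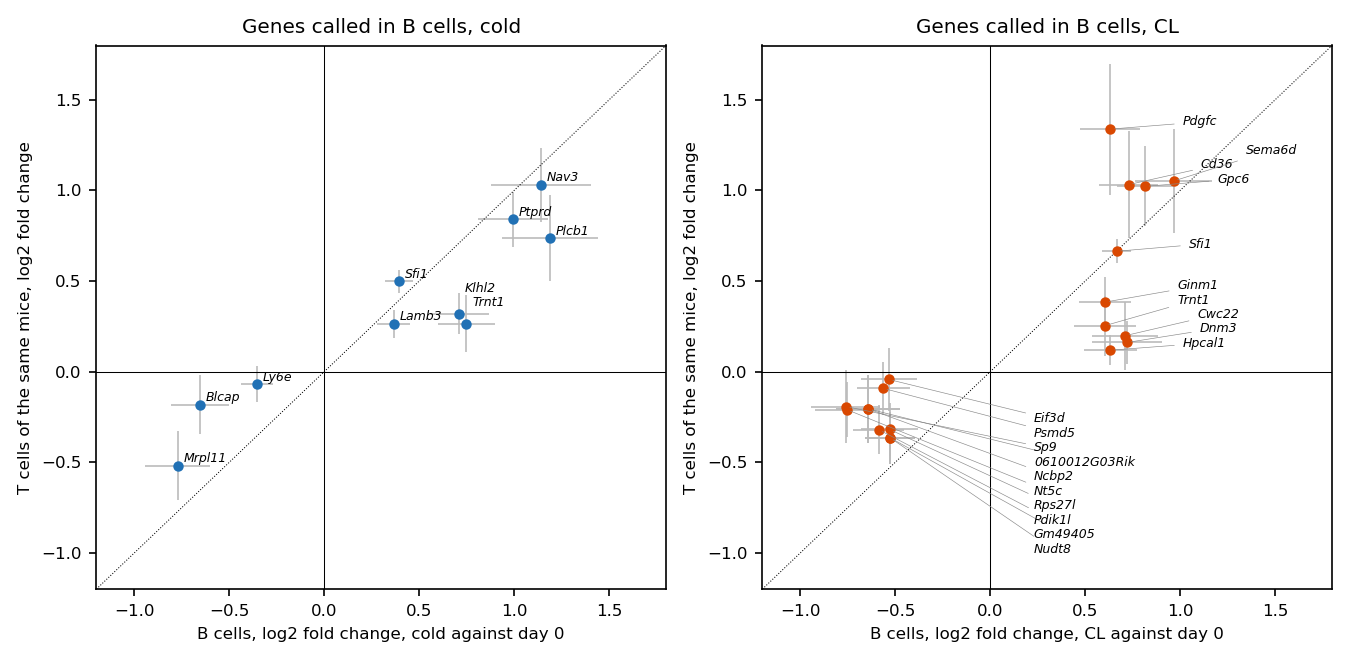
Log2 fold change against day 0 in T cells (vertical) against B cells (horizontal) of the same mice, for the named genes past the threshold in B cells, in cold and in CL. Bars are standard errors and the dotted line marks equal values. Sfi1 lies near the line in both panels and Trnt1, Klhl2, Dnm3, Cwc22 and Hpcal1 lie below it. The genes were chosen for their change in B cells, which favours larger values there.

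Markers of 6 other cell types were followed in the B cell libraries. Adipocyte and myeloid sums are given above, and the myeloid sum was 413 ± 20.6 CPM at day 0 and 512 ± 55.9 on day 1 of CL (SD, n = 3). T cell markers (18 genes) summed to 653, 707 and 592 CPM at day 0, 576 to 782 in cold and 550 to 732 in CL. Stromal progenitor markers (12 genes) summed to 159, 214 and 166 CPM at day 0, 172 to 252 in cold and 153 to 269 in CL, with 248 ± 20.3 on day 1 of CL. The day 0 mean was 180 ± 30.2. Endothelial markers (13 genes) summed to 617, 570 and 677 CPM at day 0, 510 to 693 in cold and 481 to 647 in CL, with 525 ± 38.2 on day 1 of CL. Muscle markers (10 genes) summed to 246, 271 and 273 CPM at day 0, 208 to 295 in cold and 195 to 306 in CL. The day 1 means of CL include the thin library of day1CL mouse 3 and are not given without it. The part of these sums in the day 1 changes was not tested. The endothelial gene Tie1 and the muscle gene Myh4 were at 0 in every B cell library. Counts sufficed to test 6 of 20 adipocyte, 10 of 18 T cell, 8 of 18 myeloid, 2 of 12 stromal progenitor, 5 of 13 endothelial and 4 of 10 muscle genes, of which 0 passed in cold or CL, where 0.113% and 1.31% of all genes did.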

How the data were processed

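Single-nucleus ATAC-seq of iWAT was read from the deposited peak matrix of 189598 peaks and 32552 nuclei, whose values are counts coded by the authors as 0 or 1 (reads absent or present in a nucleus), with their annotation of each nucleus to a mouse, group and cell type. Per the submitters' processing notes, reads were handled with Bowtie2, SAMtools, MACS2 and Signac on mm10. The study's methods keep properly paired, well-mapped reads without duplicates, call peaks with MACS2 in each cell cluster on windows centred on read ends, merge these over clusters and drop nuclei with a low share of reads in peaks. The 4 sequencing lanes pool mice, so mice and groups came from the deposited annotation. The deposited counts were summed over B cell nuclei per mouse, giving 43662 to 1466100 counts per gene library; binary coding discards depth within a nucleus, and lower depth widens the error of low genes. Genes took all peaks overlapping their body or 2000 bases upstream in a GENCODE annotation of GRCm38 (17196 genes with a peak).

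Genes and peaks that passed filterByExpr (10 counts in a library, 15 in total) entered edgeR 4.0.16 (its quasi-likelihood test with TMM scaling and group means over all 7 groups, Benjamini-Hochberg over all features tested), with averages of the 3 days for cold and CL. The filter needed only 3 libraries, as many as a group holds, so a feature low elsewhere could enter through the group where it was high. Fold changes are log2 and SE is the size of the log2 fold change over the root of F. B minus T was fitted with mouse as a block. Shares were tested by exact permutation. DESeq2 1.42.0, other scaling, filters, covariates and left-out libraries were alternatives. The scripts were tested on simulated data. Multi-copy peaks are those in which at least 10% of the 32-base words occur elsewhere in the genome. The genes named are, per comparison, the up to 10 of each direction (peaks 5, days 2) with the largest change past the threshold, a mean of at least 20 counts (peaks 10) and every treated mouse on 1 side; where fewer than 5 (peaks 3) qualified, those with the smallest p; and list members past the threshold or with the highest CPM. The cells and the gene lists were chosen with earlier results of these data known. Promoter sequences are from RefSeq, where the 4 symbols looked up matched. The study's methods name 3 independent batches of snATAC-seq without saying which mice each held, so batches were not modelled beyond the replicate block as an alternative, and p-values measure the spread between mice. Jchain was not in the table, and the replicate numbers, which reach correlations of -0.099 to 0.089 between samples of equal number, were not taken to pair mice. Some members of the gene lists are not reported here by name.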

Additional observations from a re-analysis of the deposited data

Results flagged for a closer look

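In 148 sets of 9 treated mice, 25 held a mouse far from the other 8. Chance would give about 1 in 20 if sets were independent and their values equally precise. They were not, since libraries differed in depth and a gene could enter beside its peak, as Trnt1 and Pdik1l did. The 25 can therefore not be set against that rate. Of the 25, 11 were day1CL mouse 3, the library of 66 nuclei, and 4 day3CL mouse 2.

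B cells made up 14.4% of nuclei other than adipocytes in day1CL mouse 3, against 45.2 to 54.8% in the other CL mice. Of lymphocyte nuclei they made up 84.8% in day3C mouse 1 and 88.0% in day3CL mouse 2, against highest values of 61.3 and 63.2% in the others of each arm, and these mice gave few T cell nuclei.

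Among genes, day1CL mouse 3 stood apart with 68.7 CPM of H2-Aa (others in CL 172.8 to 275.1), 344 of Atp8a1, 160.3 of Hpcal1, 137 of Cwc22 and 0 of Pdik1l. The value of Trnt1 in day3CL mouse 2 was 107 CPM, that of Cep128 in day1CL mouse 2 was 191, and in day7C mouse 2 Cwc22 had 25.99 and Rps27l 22.7. In cold, Nav3 in day1C mouse 3 had 78.7 CPM, Cd36 in day1C mouse 1 had 130.5 (others 57.3 to 78.2), Zbtb20 in the same mouse 242, Pfkp in day1C mouse 2 101.2 and Syk in day7C mouse 1 283. Among peaks, day1CL mouse 3 had 19.8 CPM near Bicral, 19.8 near Sesn1, 0 near Pdik1l, 179 near Sfi1 and 79.4 near Zswim2, day3CL mouse 2 had 93.0 near Trnt1 and 73.1 near Ginm1, and day1CL mouse 1 had 171 at the Pisd-ps2 peak.

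CL differed from cold by 0.27 log2 units for Sfi1 and by 0.49 for Cep128, and 30 genes differed among the days of cold and 39 among those of CL. The causes were not tested.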

How the results depend on the processing

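All counts here are features past the threshold, with the value as reported in brackets. None of the named results past the threshold reversed under any alternative, but many of their calls were lost. In DESeq2 9 of these calls held and 86 were lost. With nuclei of at least 1000 counts 27 held and 68 were lost, and with the gene-start share as a covariate 31 and 64. With DESeq2's size factors in edgeR 91 held and 4 were lost. Leaving out 1 mouse at a time kept a call 563 times and lost it 325 times. Among members of the lists that did not pass in cold, Zbtb20 had -0.027 and Fos 0.020 with the gene-start share as a covariate, and without day 0 mouse 1 or 3 Fos had 0.12 and -0.28 and Pde4d -0.00791 and 0.12.

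Genes in cold (13) numbered 3 with nuclei of at least 1000 counts, 3 at an adjusted p under 0.01, 21 with the replicate block, 0 with days ignored, 4 from promoter peaks and 0 in DESeq2, and 0 to 19 when 1 mouse was left out. Genes in CL (151) numbered 39 with at least 1000 counts, 37 at 0.01, 71 with days ignored, 18 from promoter peaks, 11 with the gene-start share as a covariate and 18 in DESeq2, and 15 to 185 with 1 mouse left out. CL against cold (2) gave 1 gene with at least 1000 counts, 7 with the adipocyte share as a covariate, 0 with days ignored, the gene-start share or DESeq2, and 0 to 5 with 1 mouse left out.

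Day 1 of cold (66) gave 31 with at least 1000 counts, 29 at 0.01, 3 from promoter peaks, 28 with the gene-start share, 41 with only the groups compared and 5 in DESeq2, and 10 to 78 with 1 mouse left out. Day 3 of cold (0) gave 3 with the adipocyte share, 2 with median counts as a covariate, 2 with the replicate block, 3 from promoter peaks, 3 without multi-copy peaks, 3 with the gene-start share and 2 unfiltered, and 0 to 4 with 1 mouse left out. Day 7 of cold (2) gave 1 with at least 1000 counts, 0 with the adipocyte share, 4 with the replicate block, 0 at 0.01, 6 from promoter peaks, 5 with the gene-start share and 0 in DESeq2, and 0 to 2 with 1 mouse left out. Day 1 of CL (310) gave 19 with at least 1000 counts, 178 with the adipocyte share, 189 with median counts, 85 at 0.01, 37 from promoter peaks, 60 with the gene-start share and 31 in DESeq2, and 47 to 291 with 1 mouse left out. Day 7 of CL (157) gave 78 with at least 1000 counts, 95 with the adipocyte share, 45 at 0.01, 4 from promoter peaks, 5 with the gene-start share and 16 in DESeq2, and 14 to 190 with 1 mouse left out.

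Peaks in cold (5) numbered 10 with DESeq2's size factors in edgeR, 0 with at least 1000 counts, 8 with the adipocyte share, 0 at 0.01, 0 with days ignored, 3 without multi-copy peaks, 15 with the gene-start share, 2 without thin libraries, 2 with only the groups compared, 0 unfiltered and 0 in DESeq2, and 0 to 11 with 1 mouse left out. Peaks in CL (18) numbered 3 with at least 1000 counts, 3 at 0.01, 7 with days ignored, 11 without multi-copy peaks, 10 without thin libraries, 0 unfiltered and 0 in DESeq2, and 1 to 18 with 1 mouse left out. CL against cold (0) gave 1 with median counts, 1 with the replicate block, 1 with the gene-start share, and 0 to 2 with 1 mouse left out.

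Peaks on day 1 of cold (15) numbered 4 with at least 1000 counts, 2 with median counts, 7 at 0.01, 4 without multi-copy peaks, 1 unfiltered and 0 in DESeq2 (3 to 15 with 1 mouse left out). Day 3 of cold (2) gave 4 with median counts, 1 with the replicate block, and 0 with at least 1000 counts, at 0.01, with only the groups compared, unfiltered or in DESeq2 (0 to 3). Day 7 of cold (3) gave 1 with median counts and 0 with at least 1000 counts, the adipocyte share, at 0.01, without multi-copy peaks, without thin libraries, with only the groups compared, unfiltered or in DESeq2 (0 to 3). Day 1 of CL (34) gave 5 with at least 1000 counts, 16 at 0.01, 14 without multi-copy peaks, 14 with the gene-start share, 1 unfiltered and 9 in DESeq2 (8 to 32). Day 7 of CL (16) gave 8 with at least 1000 counts, 9 with the adipocyte share, 5 at 0.01, 0 without multi-copy peaks, 6 with the gene-start share, 10 without thin libraries, 9 with only the groups compared, 1 unfiltered and 0 in DESeq2 (3 to 11). Day 3 of CL stayed at 0 for genes and peaks, and B minus T was 0 except for 0 to 1 with 1 mouse left out.

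The share of B cells in CL (-2.60 points) was 3.26 of nuclei other than adipocytes, 7.39 of lymphocytes and 4.42 without thin libraries, and ran from -4.68 to 0.873 with 1 mouse left out, being 0.873 without day1CL mouse 3 and 0.0658 without day3CL mouse 2; in cold it ran from -0.303 (without day 0 mouse 2) to 3.13.

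The causes were not tested. Limits are the 66 nuclei of the thinnest library, a binary value per nucleus, and 3 day 0 mice shared by every comparison. The equal replicate numbers were not taken to mark pairs, with correlations of -0.099 to 0.089 between equal numbers and -0.12 to 0.098 between others. Whether equal numbers shared a batch cannot be told from these. The replicate block changed counts beyond 1.5 times only where given here. The alternatives on multi-copy peaks, gene-start share and thin libraries, and the test among the days of a treatment, were chosen after seeing the data.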
